A study of Mus musculus with 4 samples.

Results

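The genes of the mitochondrial ribosome were examined in chromatin accessibility data of mouse bone marrow cells. Members were all genes in the authors' interval table whose symbol begins with Mrpl or Mrps and a digit, which gave 75 of the 20811 genes named in the table. By symbol, 46 encode large subunit proteins and 29 encode small subunit proteins. ATAC-seq, in which a transposase cuts and tags open DNA, had been run on sorted Lin-Sca1+Kit+ (LSK) cells, the bone marrow gate that holds hematopoietic stem and early progenitor cells. There were 2 libraries from p53+/+ mice (WT 1 and WT 2) and 2 from p53R248W/+ mice (R248W 1 and R248W 2), which carry 1 wild-type allele of the tumor suppressor p53 and 1 allele with the R248W substitution. The study asked how the mutant protein regulates transcription in these cells. Each library came from 50000 cells. The labels give no age and no mouse of origin for a library, so the spread within a genotype may be technical.

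Mitochondria carry their own ribosome, which translates the few messenger RNAs of the mitochondrial genome into core subunits of the respiratory chain and ATP synthase. All of its proteins are encoded in the nucleus and imported. Many descend from bacterial ribosomal proteins and others arose only in mitochondria, and their genes are expressed in nearly every cell type, usually from CpG island promoters without a TATA box. Quiescent hematopoietic stem cells are known to rely little on mitochondrial respiration, which rises as they divide and differentiate.

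The number of intervals listed was 46720 and 62478 in WT 1 and WT 2, and 60385 and 51150 in R248W 1 and R248W 2. Read depth was unknown. The authors gave each interval the signal of its highest bin, and the median over a library's intervals was 52, 62, 62 and 50 in the same order, with a lowest value of 16 in every library. WT 1 and R248W 2 therefore stood apart from WT 2 and R248W 1 in both list length and signal, across the genotypes. Among markers of stem and progenitor cells, Kit, Meis1, Flt3, Cd34 and Procr had a start-site interval in all 4 libraries, while Ly6a and Mecom had assigned intervals in all 4 but none at the start site. Among markers of mature cells, Cd8a, Ly6g and Ncr1 had no assigned interval in any library and Cd3e was assigned an interval in WT 2 alone, with a highest signal of 20. Ms4a1 had assigned intervals in all 4 libraries but none at the start site, and Itgam had a start-site interval in every library, with 63 to 100 as the highest signal assigned to it. Each library pools many cells, so a larger share of cells with an open site and a more open site in each cell cannot be told apart.

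Nearly all mitochondrial ribosomal protein genes were accessible at their start in every library. A start-site interval was defined as an interval whose summit lies within 1000 bases of the start that the authors used. Members with one numbered 72 and 72 in WT 1 and WT 2, and 71 and 72 in R248W 1 and R248W 2, and 71 of 75 (94.7%) had one in all 4 libraries. Over all 49997 genes of RefSeq the share was 23.0%, and over the 16070 protein-coding genes that the table names it was 66.5%. The members' share was thus above both. Only the second is a like comparison, since all members are protein-coding genes that the table names. RefSeq has 78 protein-coding genes whose symbols match the rule. The 75 members lay on 17 chromosomes, with 10 on chromosome 11, 8 on chromosome 17, 7 on chromosome 6 and 6 on chromosome 7.

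The signal at these starts was high for an interval and ordinary for a promoter. The median highest-bin signal of the members was 139 in WT 1 (range 38 to 603), 192 in WT 2 (54 to 1053), 183 in R248W 1 (63 to 992) and 112 in R248W 2 (36 to 570). Since the scaling of the authors' signal between libraries is not given in the sources used here, each interval was also ranked within its own library. Its list percentile is the percent of that library's intervals with a lower signal. The median list percentile of members was 84.1 and 85.2 in WT 1 and WT 2, and 83.6 and 79.5 in R248W 1 and R248W 2. All genes with a start-site interval had medians of 82.6, 84.4, 84.4 and 82.4, and those whose interval carried a CpG island had 85.3, 87.3, 87.3 and 85.5. The members lay within 3 percentile points of the first and below the second in every library. Few members lay at the lower end. In WT 1, WT 2, R248W 1 and R248W 2, 3, 1, 0 and 3 members ranked below the median interval of their library (4.17%, 1.39%, 0% and 4.17%), against 17.4%, 16.1%, 15.9% and 17.4% of all genes with a start-site interval. At the upper end, 25, 26, 25 and 24 members were at or above the 90th percentile (34.7%, 36.1%, 35.2% and 33.3%), close to the 32.7%, 36.6%, 36.6% and 33.0% of all genes with a start-site interval.

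**Figure D1:**
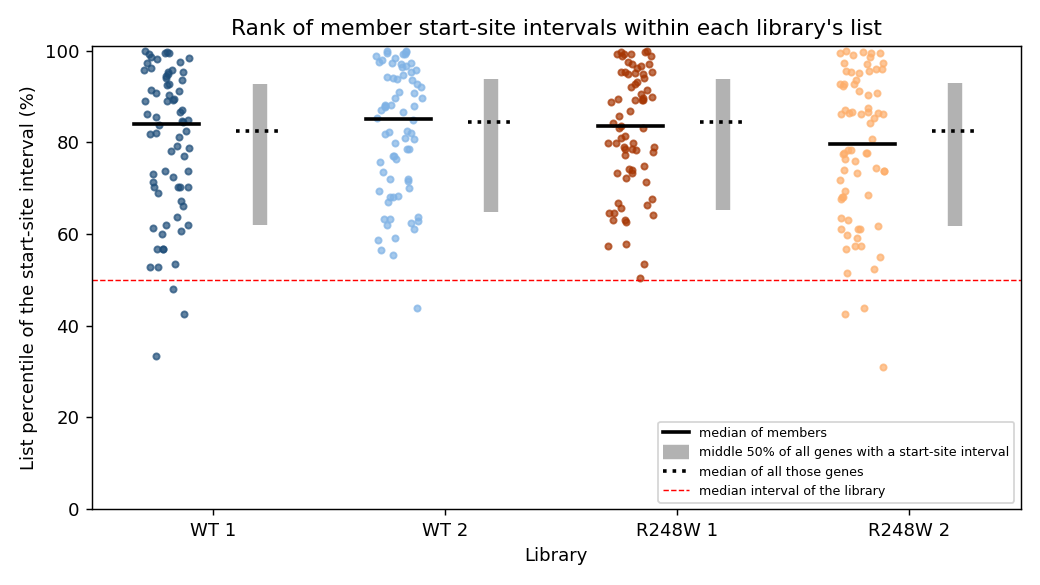
List percentile (y axis, %) of each member's start-site interval in the 4 libraries, with black lines at the members' medians; grey bars span the middle 50% of all genes with a start-site interval and dotted lines mark their medians. The medians of members (79.5 to 85.2) and of all such genes (82.4 to 84.4) are close, while at most 3 members in a library fall under the dashed line of the median interval.

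The genes of this family differed widely from each other, though no more than genes in general, and their order was nearly the same in every library. Over the 71 members with a start-site interval in all 4 libraries, the mean list percentile ran from 44.5 to 99.9. It was at least 98 for 8 members, at least 90 for 24 and under 60 for 8. Across the 71 genes, Spearman's rho between pairs of libraries was 0.963 to 0.979. These points share libraries and sequence composition and are given as a description. Neither rho nor the counts above were computed over the common set. For 69 of the 71 members, WT 2 and R248W 1 both had a higher signal than WT 1 and R248W 2, which was also the case for 92.8% of the common set. The highest library of a member exceeded its lowest by a median ratio of 1.69 (1.33 to 2.55), so an absolute difference in signal between libraries mostly repeats the order of the libraries.

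**Figure D2:**
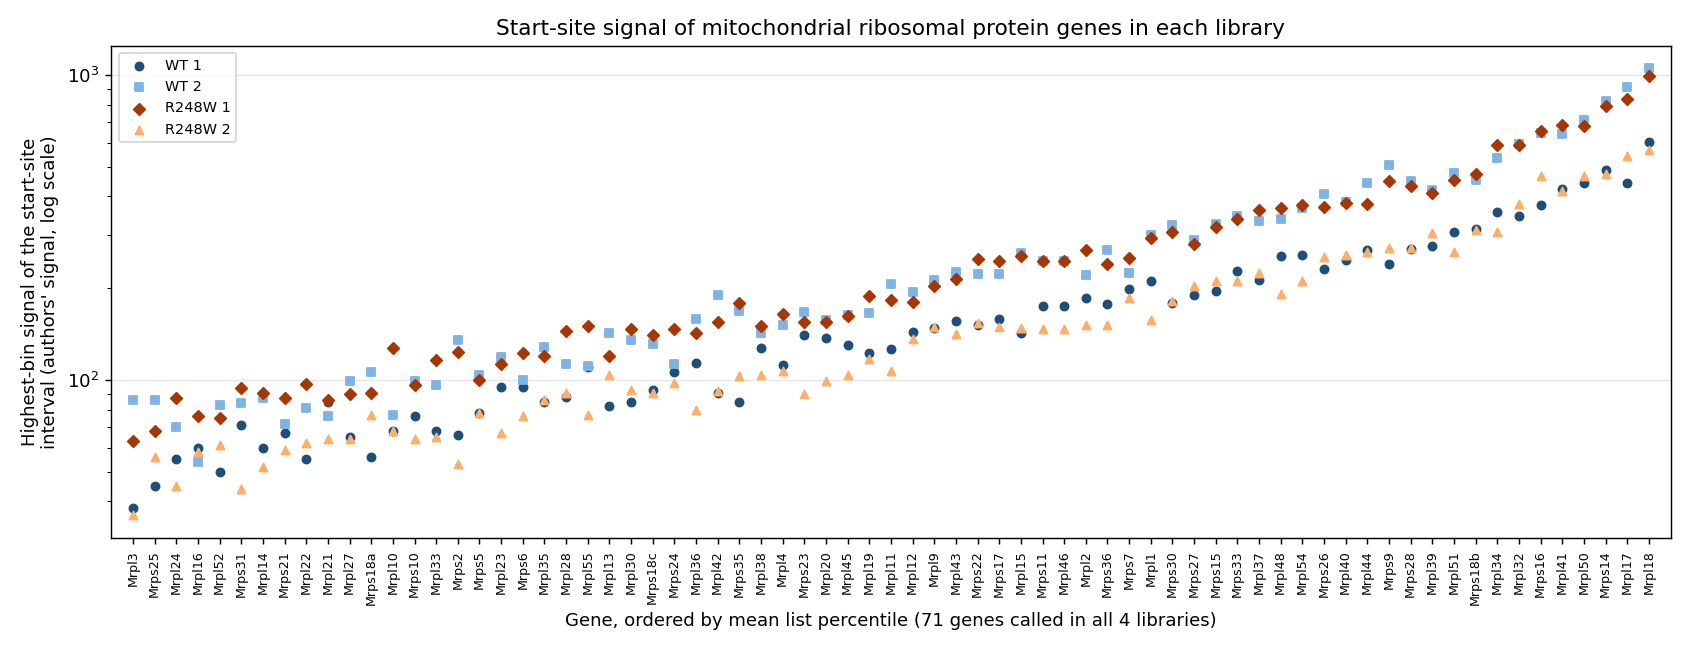
Highest-bin signal (y axis, log scale, the authors' signal) of the start-site interval of 71 members, ordered by mean list percentile, with 1 marker per library. Mrpl18 is highest, with 570 to 1053, Mrpl3 is at the low end, with 36 to 86, and the markers of WT 2 and R248W 1 lie above those of WT 1 and R248W 2 for 69 of the genes.

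The most accessible starts belonged to both subunits and to both old and new proteins. Mrpl18, which encodes the relative of a bacterial large subunit protein that binds ribosomal RNA, had signals of 603 and 1053 in WT 1 and WT 2, and 992 and 570 in R248W 1 and R248W 2, and a mean list percentile of 99.9. Its start at position 12916091 of chromosome 17 lies in the same interval as the start of Tcp1, a subunit of the cytosolic chaperonin. Mrpl17, another large subunit protein with a bacterial homolog, had 444, 916, 835 and 541 in the same order of libraries (mean percentile 99.7) and shared its interval with no other start. Mrps14, a small subunit protein with a bacterial homolog, had 488, 822, 791 and 474 (99.6). In all 3 genes every library was above the 99th percentile of its own list. The genotypes overlapped in raw signal, which mostly repeats the order of the libraries. By rank within the common set, described below, Mrpl18 and Mrps14 were lower in both R248W libraries, by gaps of 0.10 and 0.30 points, and Mrpl17 overlapped.

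The next 5 genes by mean percentile followed closely. Mrpl50, a protein with no bacterial counterpart, had 443, 712, 681 and 467 (mean percentile 99.4). Mrpl41, also specific to mitochondria, had 424, 641, 685 and 416 (99.2). Mrps16, a small subunit protein with a bacterial homolog whose loss causes respiratory chain deficiency in human patients, had 376, 648, 654 and 467 (99.1). The last of these genes encode large subunit proteins with bacterial homologs. Mrpl32, whose precursor is matured by the mitochondrial m-AAA protease, had 344, 595, 589 and 379 (98.6), and Mrpl34 had 357, 535, 590 and 306 (98.2). WT 1 and R248W 2 were the low libraries in each of these genes.

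The lowest starts were still called in every library. Mrpl3, encoding a large subunit protein with a bacterial homolog that is mutated in a human mitochondrial cardiomyopathy, had signals of 38 and 86 in WT 1 and WT 2, and 63 and 36 in R248W 1 and R248W 2. Its list percentiles were 33.4, 63.3, 50.5 and 31.0, so it ranked above the median interval in WT 2 and R248W 1 and below it in WT 1 and R248W 2. Mrps25, a mitochondria-specific small subunit protein, had 45, 86, 68 and 56 (mean percentile 53.6). Mrpl24 and Mrpl16, both with bacterial homologs, followed. Mrpl24 had 55, 70, 87 and 45 (53.7), and Mrpl16 had 60, 54, 76 and 58 (53.8), with WT 2 as its lowest library. Mrpl52, specific to mitochondria, had 50, 83, 75 and 61 (56.6).

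The sequence just before the start is shown for 3 of the highest and 3 of the lowest members, as examples. Each is the 150 bases directly before the gene's RefSeq start (GRCm38.p6, the RefSeq name of the mm10 assembly), which coincides with the authors' start in these genes, written 5′ to 3′ on the gene's strand. Capitals mark matches to the short motifs described below. Mrpl17 is on the minus strand at chr7:105811088-105811237, Mrpl32 on the minus strand at chr13:14613038-14613187 and Mrpl34 on the plus strand at chr8:71464776-71464925. Mrpl3 is at chr9:105053118-105053267, Mrpl16 at chr19:11770265-11770414 and Mrpl24 at chr3:87919394-87919543, all on the plus strand.
Mrpl17: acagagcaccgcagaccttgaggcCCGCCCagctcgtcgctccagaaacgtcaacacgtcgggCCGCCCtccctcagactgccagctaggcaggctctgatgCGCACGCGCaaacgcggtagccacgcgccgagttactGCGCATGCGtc
Mrpl32: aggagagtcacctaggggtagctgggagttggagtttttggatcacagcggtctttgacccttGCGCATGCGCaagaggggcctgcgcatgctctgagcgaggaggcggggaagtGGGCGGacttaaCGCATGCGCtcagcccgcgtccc
Mrpl34: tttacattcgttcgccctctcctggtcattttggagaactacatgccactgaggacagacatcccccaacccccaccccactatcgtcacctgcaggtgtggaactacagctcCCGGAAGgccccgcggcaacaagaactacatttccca
Mrpl3: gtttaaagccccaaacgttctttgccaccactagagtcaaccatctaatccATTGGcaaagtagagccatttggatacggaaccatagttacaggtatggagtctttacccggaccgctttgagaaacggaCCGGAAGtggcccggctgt
Mrpl16: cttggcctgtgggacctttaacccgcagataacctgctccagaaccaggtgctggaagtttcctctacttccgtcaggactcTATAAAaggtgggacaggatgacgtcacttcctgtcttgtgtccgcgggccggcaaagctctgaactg
Mrpl24: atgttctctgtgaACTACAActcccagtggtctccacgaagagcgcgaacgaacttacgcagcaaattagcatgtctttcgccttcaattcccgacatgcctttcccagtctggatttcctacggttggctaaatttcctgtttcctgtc
The stretch of Mrpl17 holds 2 NRF1-type matches and 2 GC boxes, and that of Mrpl32 holds 3 NRF1-type matches, of which 2 overlap, and 1 GC box. Mrpl34 has an ETS-type match. Among the low genes, Mrpl3 has an ETS-type match and a CCAAT box, Mrpl16 a TATA box, and Mrpl24 a ZNF143-type match. GC content of the whole 300-base promoter was 69.7% for Mrpl17, 55.0% for Mrpl32 and 57.7% for Mrpl34, against 46.3%, 53.0% and 48.3% for Mrpl3, Mrpl16 and Mrpl24. The contrast depends on the genes shown. Of the lowest genes not shown, Mrps25 had 57.7% and Mrpl52 had 60.3%. Of the highest genes not shown, Mrpl18, Mrps14, Mrpl50, Mrpl41 and Mrps16 had 58.7%, 59.3%, 58.0%, 68.0% and 72.7%. None of these genes not shown had an NRF1-type match in its promoter.

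By subunit, the median of the mean list percentile was 81.3 over 44 large subunit members and 87.6 over 27 small subunit members, beside 84.8 over the common set. By origin, the 44 members with a bacterial homolog had a median of 78.2 and the 26 mitochondria-specific members a median of 90.002. Both origins spanned most of the range, from 44.5 to 99.9 and from 53.6 to 99.4. Mrps18a and Mrps30, which carry small subunit symbols but sit in the large subunit of the mammalian ribosome, had mean percentiles of 64.1 and 91.5. In the split by origin Mrps18a was counted as mitochondria-specific, while Mrps18b and Mrps18c were counted among members with a bacterial homolog. Mrps36, named as a ribosomal protein but known to be part of the α-ketoglutarate dehydrogenase complex, had 88.9. These groups are descriptions, and no difference between them was tested.

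The summits sat close to the annotated start. The median distance, regardless of direction, was 69, 65.5, 80 and 77 bases in WT 1, WT 2, R248W 1 and R248W 2, against 97 to 100 bases for all genes with a start-site interval. The summit was within 200 bases of the start for 88.9%, 90.3%, 88.7% and 87.5% of members, against 73.3% to 74.7% of all such genes. Positions repeated between libraries. The summit range over the 4 libraries was at most 100 bases for 62 of 71 members (87.3%), against 81.6% of the common set, and 20 members (28.2%) had an identical summit in all 4, against 22.6%.

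Only 7 members had a summit over 300 bases from the start in some library, namely Mrpl23, Mrpl48, Mrpl51, Mrps18b, Mrps21, Mrps25 and Mrps7. In Mrps21 the summit lay 805 to 901 bases before the authors' start, while the RefSeq table places the start 895 bases before the authors' start. Mrps25 had the widest spread between libraries, 448 bases, from 425 bases before to 23 bases after the start. The intervals had median lengths of 1537.5, 1592.5, 1598 and 1555.5 bases in WT 1, WT 2, R248W 1 and R248W 2, somewhat shorter than the 1698.5, 1746, 1809 and 1665.5 bases of all genes with a start-site interval.

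Many members shared their accessible interval with a neighbor that starts beside them. In all 4 libraries, 25 of 71 members (35.2%) had the start of another gene within 1000 bases of the same summit, against 21.5% of the common set, and for 22 of them the neighbor was protein-coding. The 25 members formed 25 distinct pairs of starts, since Mrpl46 and Mrps11 pair with each other and Mrpl14 had 2 neighbors. Of these pairs, 23 were divergent, with the genes on opposite strands running away from each other. The starts were 8 to 1104 bases apart, with a median of 154. Mrps6 and Slc5a3, a myo-inositol transporter gene, start 14 bases apart on the same strand. Mrpl48 and Rab6a, a small GTPase gene of the Golgi, overlap at their first bases by 410. Members with a shared start had a median of the mean list percentile of 88.5, and those without had 80.4.

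**Figure D3:**
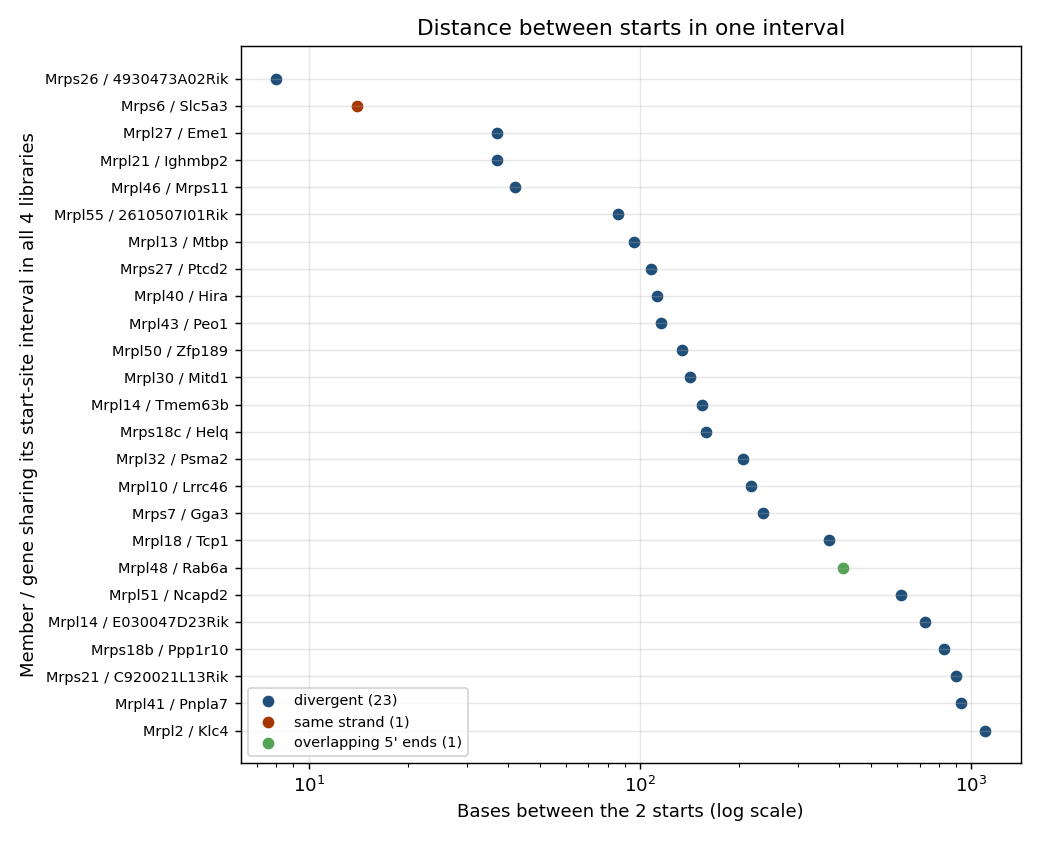
Bases between the starts (x axis, log scale) for the 25 distinct pairs formed by a member and a gene whose start lies in the same interval in all 4 libraries, colored by orientation. Divergent pairs make up 23 of the 25, and distances between the authors' starts run from 8 bases (Mrps26 and 4930473A02Rik) to 1104 bases (Mrpl2 and Klc4).

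By the authors' starts, the closest pairs in all 4 libraries were Mrps26 with the noncoding 4930473A02Rik at 8 bases, then Mrps6 with Slc5a3. The order depends on the annotation. Mrps21 and C920021L13Rik are 903 bases apart by the authors' starts. The RefSeq start of Mrps21, however, is at position 95871514, close to the authors' start of C920021L13Rik at 95871522. Mrpl21 with Ighmbp2, a helicase gene, and Mrpl27 with Eme1, which encodes the partner of the Mus81 nuclease, were both 37 bases apart. Mrpl46 and Mrps11 were 42 bases apart, so a large subunit gene and a small subunit gene used the same interval, with signals of 175 and 246 in WT 1 and WT 2, and 245 and 147 in R248W 1 and R248W 2. These 2 members are therefore 1 measurement. Mrpl55 with 2610507I01Rik (86 bases), Mrpl13 with Mtbp, a gene for an Mdm2-binding protein (96 bases), and Mrps27 with Ptcd2 (108 bases) completed the 8 closest. Mrps27 and Ptcd2 both encode mitochondrial proteins with pentatricopeptide repeats. Mrpl43 was paired at 116 bases with Peo1, the gene of the mitochondrial DNA helicase Twinkle, and Mrpl40 at 113 bases with the histone chaperone gene Hira. Peo1 and Hira are named here after their values were seen.

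The bases between divergent starts are few enough to show whole for the pair of ribosomal genes and for 2 of the other pairs. Each sequence runs from the base after the neighbor's start to the base before the member's start. It is given on the strand of the first-named gene (GRCm38.p6), and capitals again mark motif matches. Mrpl46 and Mrps11 enclose chr7:78783090-78783130 (minus strand of the genome, the strand of Mrpl46), Mrps27 and Ptcd2 enclose chr13:99344679-99344785 (plus strand), and Mrpl40 and Hira enclose chr16:18876638-18876749 (minus strand).
Mrpl46 and Mrps11: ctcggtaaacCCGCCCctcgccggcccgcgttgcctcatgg
Mrps27 and Ptcd2: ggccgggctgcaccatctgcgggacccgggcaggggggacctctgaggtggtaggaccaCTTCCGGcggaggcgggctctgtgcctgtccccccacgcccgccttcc
Mrpl40 and Hira: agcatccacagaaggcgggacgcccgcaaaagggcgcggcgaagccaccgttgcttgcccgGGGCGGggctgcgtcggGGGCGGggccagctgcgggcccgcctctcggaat
The window of the ribosomal pair holds a single GC box in its 41 bases. That of Mrps27 and Ptcd2 holds an ETS-type match, and that of Mrpl40 and Hira holds 2 GC boxes.

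CpG islands were almost universal among these starts. The authors' annotation placed an island at the start-site interval in all 4 libraries for 69 of 71 members (97.2%), against 81.9% of the common set. The exceptions were Mrpl16 and Mrpl35, with no island in any library. Mrpl35 had signals of 85 and 128 in WT 1 and WT 2, and 120 and 86 in R248W 1 and R248W 2, a mean list percentile of 72.8. Both genes are below the members' median.

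The promoters of these genes carried some short motifs more often than promoters of the common set. RefSeq's table gave a promoter (250 bases before to 50 after the start) for 66 of 75 members, 42 of them starting at the same base as in the authors' annotation and 62 within 100 bases. It had no entry for Mrpl13, Mrpl15, Mrpl19, Mrpl38, Mrpl4, Mrpl54, Mrps28, Mrps34 and Mrps35. The 66 include Mrpl49, Mrpl53 and Mrps12, which had no start-site interval. A member with several promoters was given the one nearest the authors' start. Common-set genes and cytosolic ribosomal protein genes were given the first listed, so the sets are not fully alike. Both strands were searched, and motifs may overlap. The ETS-type letters CCGGAAG, as in sites of GABP, were in 34.8% of member promoters, 18.4% of the 9088 common-set promoters and 8.86% of all 32851 promoters. The NRF1-type letters CGCANGCGC were in 25.8%, 14.3% and 6.31%, and the YY1-type letters AAGATGGC in 18.2%, 4.67% and 2.75%. GABP, NRF1 and YY1 are known regulators of nuclear genes for mitochondrial proteins. All 3 motifs were more frequent in members than in either background, without a test.

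The GC box GGGCGG, bound by the Sp family, was in 50.0% of member promoters, fewer than the 66.6% of common-set promoters and more than the 35.7% of all. The NFY box CCAAT was in 40.9%, 38.6% and 37.4%, and the TATA box TATAAA in 6.06%, 6.25% and 13.6%, close to the common set. The E-box CACGTG was in 7.58%, 10.7% and 7.15%, and the ZNF143-type letters ACTACAA in 7.58%, 4.15% and 3.24%. Median GC content was 58.2% in members, 61.7% in the common set and 52.7% in the whole table, and motif frequencies were not corrected for it. Of 55 cytosolic ribosomal protein promoters, 34.5% had the ETS-type letters, 10.9% the NRF1-type letters and 7.27% the YY1-type letters. A match is a description of the letters and not evidence of binding.

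**Figure D4:**
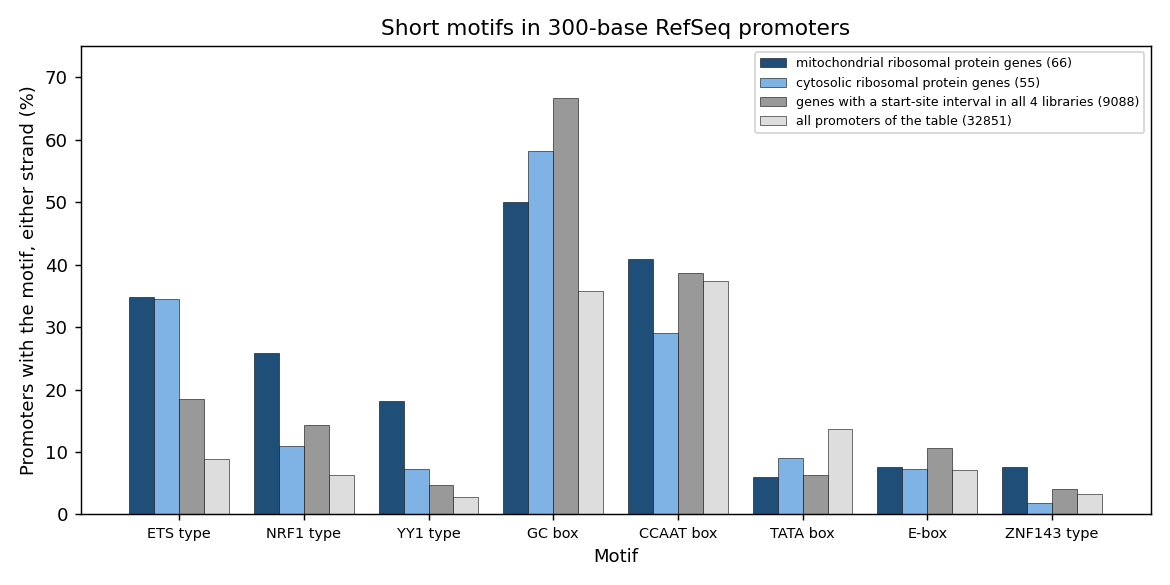
Percent of 300-base RefSeq promoters with each motif on either strand (y axis) for mitochondrial ribosomal protein genes, cytosolic ribosomal protein genes, genes with a start-site interval in all 4 libraries and the whole table. ETS, NRF1 and YY1 types stand above both backgrounds in the mitochondrial genes (34.8%, 25.8% and 18.2%), while the GC box (50.0%) is under the 66.6% of accessible genes.

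Among members, start-site rank was set beside each motif. The 31 genes with a GC box and a start-site interval in all 4 libraries had a median mean list percentile of 89.98, and the 32 without one had 73.3. The values were 86.7 with and 83.5 without the ETS-type letters, 86.7 and 80.0 for NRF1-type, and 83.2 and 84.4 for YY1-type. They were 88.8 and 80.3 for the CCAAT box, 81.8 and 84.4 for the TATA box, 80.1 and 85.3 for the E-box and 77.8 and 85.3 for ZNF143-type. The TATA box, the E-box and the ZNF143-type letters were each in at most 5 of these genes. The GC box and the CCAAT box thus had the widest differences in favor of genes with the motif. These are descriptions without a test, and the part of GC content in them was not tested.

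The other 4 members lacked a start-site interval in at least 1 library, and their cases differ. Mrpl53, a mitochondria-specific large subunit gene, had an interval in every library with its summit 1332 to 1396 bases before the start at position 83109108 of chromosome 6, just outside the window, with signals of 45 and 81 in WT 1 and WT 2, and 91 and 61 in R248W 1 and R248W 2. The nearest edge of that interval was 772 to 831 bases from the start. Mrps34, a mitochondria-specific small subunit gene that starts 33 bases from the nuclease partner gene Eme2, had an interval over its start in all 4 libraries, with signals of 60, 85, 81 and 59. In R248W 1 the summit lay 1296 bases downstream of the start, at position 24896416, beyond the RefSeq end of Mrps34 at 24896289. In WT 1, WT 2 and R248W 2 it lay 240, 176 and 144 bases downstream of the start. Mrps34 is therefore not counted for R248W 1. For both genes the 1000-base limit decides the count.

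Mrpl49 and Mrps12 had no interval near their start in any library. For Mrpl49, a mitochondria-specific large subunit gene, the nearest interval began 2738 to 2912 bases from the start at position 6057751 of chromosome 19 and lay at the start of Znhit2, with signals of 155, 233, 238 and 120 there. Its divergent neighbor Fau, whose product is a fusion of a ubiquitin-like protein and a cytosolic ribosomal protein, also had no start-site interval. For Mrps12, which encodes the homolog of a bacterial small subunit protein of the decoding center, the nearest interval was 8077 to 8172 bases from the start at position 28741781 of chromosome 7, with signals of 119, 183, 225 and 130. Its divergent neighbor Sars2, the mitochondrial seryl-tRNA synthetase gene, likewise had none. Both pairs of starts were thus uncalled in all 4 libraries, while Syvn1, whose start lies on the other side of Mrpl49, had start-site signals of 149, 207, 234 and 139. A missing interval does not show closed chromatin, and read coverage at these starts was not analysed here.

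Between genotypes, the presence of a start-site interval was compared by whether both libraries of 1 genotype and neither of the other had one. Of the 72 members with one in any library, 0 had one in both R248W libraries and in neither WT library, and 0 the reverse. Among all 14378 genes with a start-site interval in any library the shares were 0.542% and 0.292%, so both counts of 0 were near the background. No test per gene was made, since no source gives a scaling of the authors' signal between libraries, and with 2 libraries against 2 a two-sided exact permutation test of 1 gene cannot give a p below 0.33.

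To compare ranks between lists of different length, percentiles were taken among the 12517 genes of the common set, the same genes in each library. By this common-set percentile the members' median was 52.4 and 47.5 in WT 1 and WT 2, and 44.1 and 43.0 in R248W 1 and R248W 2, lower in both R248W libraries than in both WT libraries. Their mean did not separate the genotypes in this way, at 53.3, 50.8, 51.0 and 49.7 in the same order, with R248W 1 above WT 2. Per gene, both R248W libraries ranked below both WT libraries in 18 of 71 members (25.4%), against 16.5% of the common set. Both ranked above both WT libraries in 5 (7.04%), against 15.5%. The other 48 overlapped. The median difference of R248W minus WT means was -1.02 percentile points, against 0.03 in the common set, and it was negative for 45 of 71 members (63.4%), against 49.4%. Gene by gene, the median size of the difference in either direction was 2.08 points, beside median ranges between the libraries of a genotype of 4.68 points in WT and 3.03 in R248W. The gap between the genotypes was wider than both within-genotype ranges in 3 of 71 members, Mrps36, Mrps33 and Mrpl27, all lower in R248W. This is 4.23%, close to the 4.27% of the common set that was lower by the same rule, and 8.11% of the common set met it in either direction. Because WT 1 and R248W 2 differ from WT 2 and R248W 1 in list length, and Mrpl46 and Mrps11 are the same interval, these counts are given as descriptions. Leaving out WT 1, WT 2, R248W 1 or R248W 2 made overlap less likely. The counts became 30, 42, 30 and 29 lower and 21, 15, 13 and 9 higher. Lower shares were 42.3%, 59.2%, 41.7% and 40.8%, beside backgrounds of 31.3%, 36.0%, 34.3% and 31.1%. Higher shares were 29.6%, 21.1%, 18.1% and 12.7%, beside backgrounds of 31.6%, 35.0%, 34.1% and 30.7%. Without WT 1 the higher share was thus near its background.

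**Figure D5:**
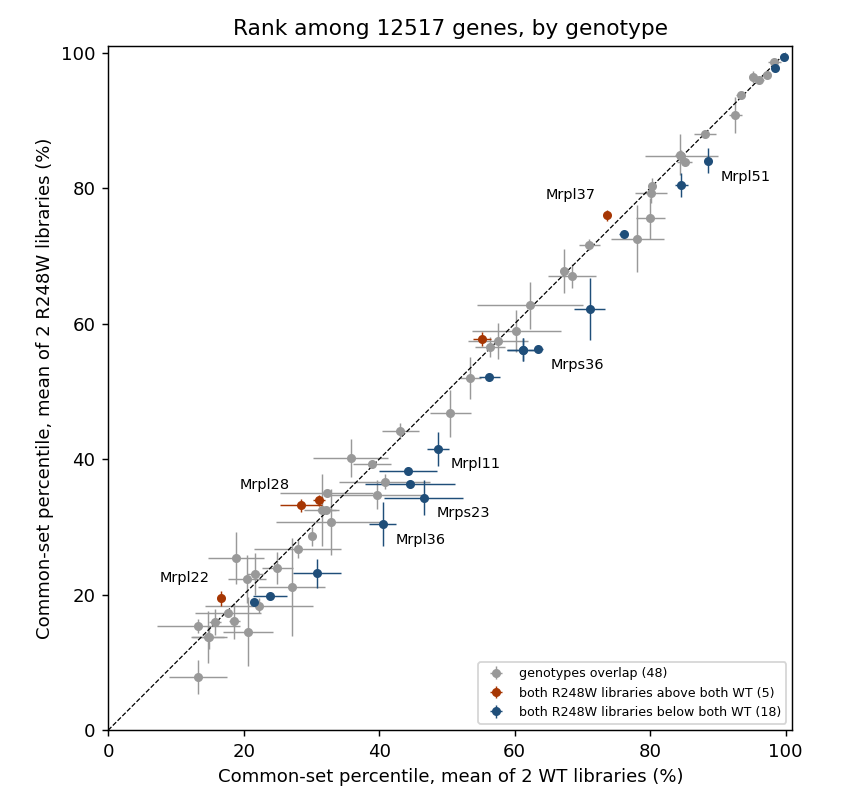
Common-set percentile of 71 members, as the mean of 2 WT libraries (x axis, %) and of 2 R248W libraries (y axis, %), with bars from the lower to the higher library. There are 18 genes with both R248W libraries below both WT libraries, 5 with both above and 48 that overlap, and the differences from the dashed line of equal rank run from -12.2 points (Mrps23) to 6.58 points (Mrpl10).

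The widest gap was in Mrps36, the dehydrogenase complex gene, with common-set percentiles of 64.2 and 62.8 in WT 1 and WT 2, and 56.8 and 55.8 in R248W 1 and R248W 2, a gap of 6.04 points. Its raw signals were 177, 266, 240 and 151, in which the genotypes overlap. Mrpl36, a large subunit protein with a bacterial homolog, had 42.5, 38.5, 33.7 and 27.2, a gap of 4.81 beside an R248W range of 6.49. Mrps23, a mitochondria-specific small subunit protein, had 52.4, 40.7, 36.9 and 31.8. Its gap of 3.83 was smaller than its WT range of 11.7. The next were Mrpl11, a homolog of the protein at the base of the bacterial ribosomal stalk, with a gap of 2.97, and Mrpl51, specific to mitochondria, with a gap of 2.28. Their R248W ranges, 5.04 and 3.68, were wider than these gaps.

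The 5 genes that ranked higher in R248W were Mrpl37, Mrpl22, Mrpl30, Mrpl28 and Mrps22, with gaps of 1.51, 1.18, 1.01, 0.64 and 0.24 points. In each the wider within-genotype range exceeded the gap, at 1.54, 2.26, 1.75, 6.18 and 2.64 points. Mrpl37, specific to mitochondria, had common-set percentiles of 73.7 and 73.7 in WT 1 and WT 2, and 76.8 and 75.2 in R248W 1 and R248W 2. Mrpl22, near the polypeptide exit tunnel in bacterial ribosomes, had 17.2, 16.1, 20.6 and 18.4. Mrps22, which is mutated in human combined respiratory chain deficiency, had 56.5, 53.9, 58.8 and 56.8. By subunit symbol, 4 large subunit members were higher and 12 lower of 44, and 1 small subunit member was higher and 6 lower of 27. Over the common set the shares were 15.5% higher and 16.5% lower. The single interval of Mrpl46 and Mrps11 is counted as lower in both subunits.

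Other genes of mitochondrial gene expression were read beside the members. All 7 mitochondrial ribosomal proteins with other symbols (Dap3, Ptcd3, Chchd1, Aurkaip1, Gadd45gip1, Ict1 and Mrp63) had start-site intervals in all 4 libraries, with a median mean list percentile of 76.9. Of these, Dap3, a GTP-binding small subunit protein, had signals of 119 and 181 in WT 1 and WT 2, and 171 and 114 in R248W 1 and R248W 2. All 13 translation factors did as well, with a median of 83.4. Of 22 genes for ribosome assembly and mitochondrial transcription 21 did (median 87.7), Noa1 being the exception. Of 17 mitochondrial tRNA synthetases 16 did (median 89.5), all but Sars2. The mitochondrial DNA packaging and transcription factor gene Tfam had 253, 509, 473 and 340. Of 78 cytosolic ribosomal protein genes in the table, 69 (88.5%) had a start-site interval in all 4 libraries, with a median of 87.3. The members' own median was 82.6, below those of the last 4 of these lists. By common-set percentile, 15.5% of the common set ranked higher and 16.5% lower in both R248W libraries. Among 13 translation factors 4 were higher and 1 lower, among 16 synthetases 5 and 3, and among 21 assembly and transcription genes 2 and 4. Among the 7 proteins with other symbols 1 was higher and 2 lower, and among 69 cytosolic ribosomal protein genes 7 and 14. No list was tested against the rest.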

How the data were processed

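ATAC-seq libraries of 50000 sorted LSK cells each were assigned to 2 groups of 2 from the labelled genotype. Intervals were called per library with MACS 1.4.2 on mm10, per the submitters' processing notes; no aligner, read filter, depth or scaling is given in the sources used here, and a difference in depth changes which weak intervals are called. Per the file headers, the deposited table (220733 intervals) gives the authors' highest-bin and mean-bin signal, interval length, the CpG islands and promoters annotated, and the assigned genes with distances from summit to start. From it, the highest start-site interval (summit within 1000 bases) of each gene was taken and ranked, with ties counted at the midpoint. The table has no value for uncalled regions and no known scaling between libraries, so ranks were described and no test across features was made. Shares are set beside all genes. Counting was tested on simulated intervals.

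Members and lists were chosen with earlier results of these data known. Named genes were the 8 highest and 5 lowest by mean list percentile, members lacking a start-site interval, the 5 widest genotype gaps per direction and the 8 closest shared starts. Mrpl47, Mrpl57 and Mrpl58 are not members, since the table does not use those symbols. Alternatives were other windows (500 and 2000 bases), shortened lists, mean-bin signal, the nearest interval, overlap of regions and leaving out each library. Promoters came from RefSeq GRCm38.p6. Analyses used python 3.11.15 and pandas 2.3.3. A few listed marker genes are not reported here.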

Additional observations from a re-analysis of the deposited data

How the results depend on the processing

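Of 85 alternative values, 70 stayed within the limits set for them (the spread between libraries, or 1.5 times a count) and 15 moved. Among the 70 were 11 and 10 counts of 0 for start-site intervals in R248W only and in WT only. The main counts were also 0. Taking the nearest interval repeated the main values. All counts of members higher or lower in R248W moved when a library was left out. The count of members with a start-site interval in all 4 libraries was 69 at 500 bases, 73 at 2000 bases, 75 with any assigned interval and 65 in the higher 50% of each list; shared starts ranged from 21 to 29. With 46720 intervals per library the median list percentile was 80.1 in WT 2 and 78.8 in R248W 1, and with the higher 50% of each list it was 69.4, 70.7, 67.1 and 68.5 in WT 1, WT 2, R248W 1 and R248W 2, since a shorter list removes intervals below the members. Leaving out each library in turn leaves 1 library on a side, which makes overlap less likely: members higher in R248W then numbered 9 to 21 (background 30.7% to 35.0%) and members lower 29 to 42 (background 31.1% to 36.0%). Without WT 1, WT 2, R248W 1 and R248W 2 the lower share was 42.3%, 59.2%, 41.7% and 40.8%. In the same order the higher share was 29.6%, 21.1%, 18.1% and 12.7%, beside backgrounds of 31.6%, 35.0%, 34.1% and 30.7%. Members with a start-site interval only in WT numbered 0 to 1, the 1 being Mrps34 without R248W 2. With Mrpl46 and Mrps11 counted once, an alternative chosen after seeing the data, 5 members were higher and 17 lower. Under the other alternatives 4 to 6 were higher and 17 to 20 lower. No paired analysis was made, since no result here comes from a test. Depth is unknown, and 2 libraries per genotype limit every comparison.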

Other observations

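Besides the start-site intervals, the authors assigned further intervals to these genes. Over the 4 libraries there were 700 assignments of an interval to a member, 287 of them at the start site and 413 elsewhere, and the latter involved 409 intervals. Of these intervals, 136 (33.3%) lay at the start of another gene, and the other 273 had a median list percentile of 45.1, well under that of the start-site intervals. The strongest examples away from any start were chosen after their values were seen. An interval with its summit 8494 to 8526 bases downstream of the start of Mrps27, at about position 99353280 of chromosome 13, had signals of 229 and 410 in WT 1 and WT 2 and 402 and 247 in R248W 1 and R248W 2, above the 190, 287, 280 and 204 of the start of Mrps27 itself. An interval 10494 to 10558 bases downstream of the start of Mrpl15 on chromosome 1 had 180, 335, 365 and 170, against 143, 261, 255 and 148 at its start. Both had no CpG island and were called in all 4 libraries. Whether either interval acts on the gene it was assigned to was not tested.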
